A study of Sus scrofa with 12 samples.

Results

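FOS, EGR1, NR4A3, DUSP1, IER2, IER3, DNAJB1 and BTG2 were followed across coronary artery segments that carried 3 kinds of stent. The first 6 are immediate early genes, DNAJB1 encodes a stress-induced co-chaperone, and BTG2 encodes an antiproliferative protein. They were taken as every probe set of the porcine Affymetrix array whose annotation gives one of these symbols and no other. These 8 genes had 11 probe sets, out of 6765 genes with at least 1 such probe set, and 10 of the 11 passed the filter on low values. EGR1 had 3 probe sets, NR4A3 had 2 and each of the others had 1. Where a gene had several, its brightest probe set over all arrays stands for it.

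Each array held RNA from 1 stented segment of a Yorkshire farm pig, collected 28 days after angioplasty and implantation of a sirolimus-eluting stent (SES), a zotarolimus-eluting stent (ZES) or a bare metal stent (BMS). Every group had 4 segments from 2 pigs, which gave 12 arrays from 6 pigs, and all pigs had angioplasty and a stent, so that no unstented artery was analysed here. Within a stent type, segments 1 and 2 share a pig, and so do segments 3 and 4. In 5 pigs the pair was the LAD (left anterior descending artery) and the RCA (right coronary artery), and SES 1 came from the LCX (left circumflex artery). SES 4 was thus the only LAD segment with SES, while every ZES and BMS pig had an LAD segment. The mix of arteries therefore differed between SES and the other groups. Both segments of a pig carried the same stent type, so that stent type differs only between pigs. Sirolimus inhibits the mTOR kinase, and zotarolimus is an analog of it. The series title speaks of overlapping stents. The sources used here do not give doses, coatings, stent platforms or the pigs' age, so that ZES against SES compares stents and not the drugs alone.

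Immediate early genes are transcribed within minutes of a stimulus, without new protein synthesis, when MAP kinase and calcium signals activate factors such as SRF, its partner ELK1, and CREB that already sit in the cell. Their mRNAs are short-lived, and their products include transcription factors that start a second wave of transcription and phosphatases that end the signal. In the vessel wall they are known as early responders to injury, stretch and growth factors, in smooth muscle and endothelial cells as well as in leukocytes.

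All values are log2 signals, so that 1 unit is a doubling. Signals were not compared between probe sets of different genes. The arrays had between 61.0% and 74.5% of probe sets above their background, taken as the 95th percentile of controls whose target was not added. All 6 measured smooth muscle markers of the 8 listed were above background on some arrays. The arrays differed between groups in ways the 8 genes do not measure. The spike-in controls read 14.62 to 15.60 on SES arrays, 14.60 to 15.91 on ZES arrays and 15.74 to 16.52 on BMS arrays. The GAPDH control, 3′ minus 5′, was 2.33 to 3.03 on SES arrays, 3.44 to 3.91 on ZES arrays and 3.64 to 4.63 on BMS arrays. SES and BMS arrays did not overlap in either control, with SES the lower (two-sided exact permutation test, p = 0.0286 for each, which 4 arrays against 4 cannot go below, with 0.0644 after adjustment over a family of 9). The same p was found for the GAPDH control between ZES and SES, with ZES the higher, and for the background between ZES and BMS, with ZES the lower. These tests permuted single arrays and ignored that segments share a pig, so that their p-values do not describe pigs. The 28S ribosomal RNA control was 14.57 on BMS 1 and 14.10 on ZES 2, against 6.95 to 10.74 on the other arrays.

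**Figure D1:**
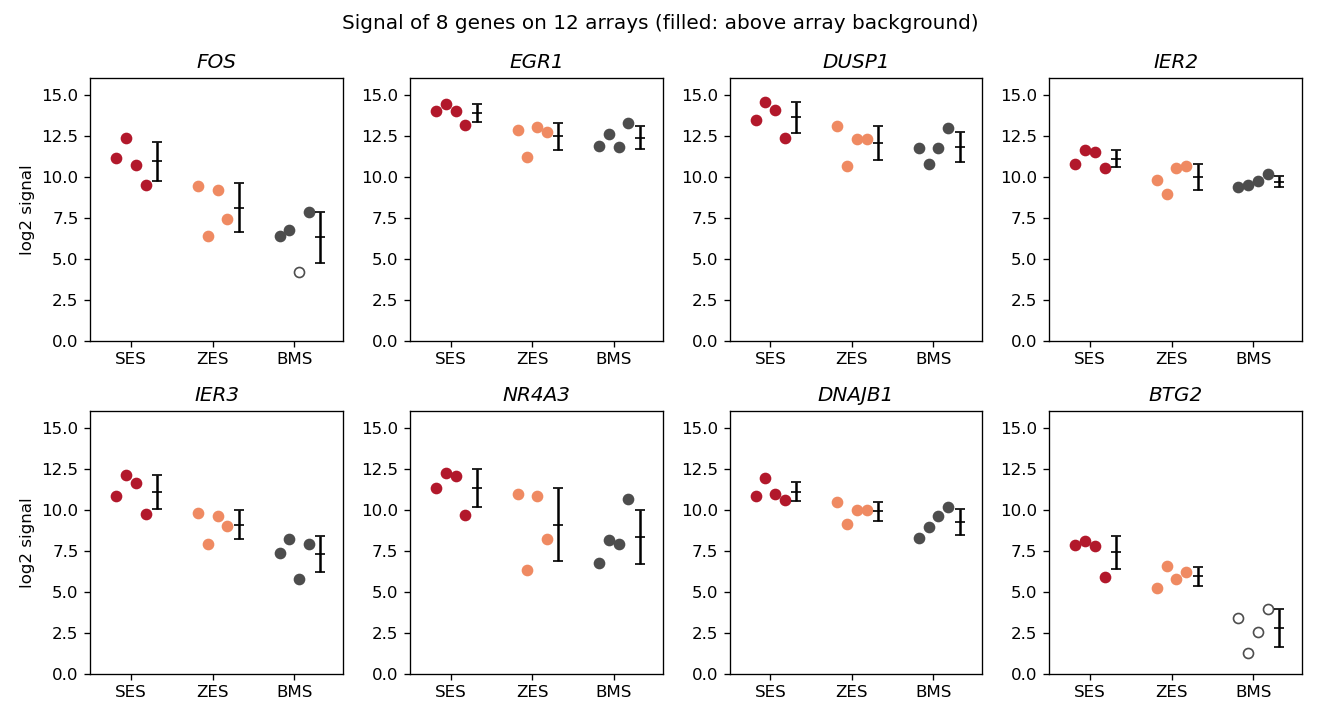
Log2 signal (vertical axes) of the 8 genes on SES, ZES and BMS arrays, 1 point per artery segment in the order of its number. The black bars are the mean ± SD of 4 arrays, and open points were not above the background of their array. FOS, IER2, IER3, DNAJB1 and BTG2 showed no overlap between SES and BMS, with SES the higher, and none of the 4 BTG2 points with BMS was above background.

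The 8 genes had their highest mean with SES, a lower one with ZES and the lowest with BMS, without exception. The share of all probe sets with this order was not counted. The GAPDH control, 3′ minus 5′, ran in the reverse order, with means of 2.71 with SES, 3.66 with ZES and 4.16 with BMS. Its part in the order of the 8 genes was not tested. FOS, IER3 and BTG2 were higher with SES than with BMS past the threshold over the whole array, FOS by 4.64 ± 0.78 and IER3 by 3.77 ± 0.58 (log2, estimate ± SE). BTG2, which no BMS array showed above background, was higher with SES by at least 3.69-fold on the group means. The other 5 had differences of 1.42 to 2.97 that did not pass. Of all 16799 probe sets tested, 0.679% passed in either direction and 0.494% passed as higher with SES. No gene of the 8 passed for ZES against BMS, where 0% of all probe sets did, or for ZES against SES, where 0.0714% did.

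FOS, which pairs with JUN proteins to form the AP-1 transcription factor, had signals of 11.15, 12.36, 10.71 and 9.49 on SES 1 to 4. They were 9.45, 6.35, 9.22 and 7.44 on ZES 1 to 4, and 6.37, 6.77, 4.18 and 7.85 on BMS 1 to 4. Every SES array thus lay above every other array, by 1.65 over the highest BMS array and by 0.04 over the highest ZES array, while ZES and BMS arrays overlapped. The means were 10.93 ± 1.19 with SES and 6.29 ± 1.54 with BMS (SD, n = 4 arrays each), which is a 24.9-fold difference (adjusted p = 0.0167). BMS 3 was not above background, so that the fold also rests on a signal that was not measured above noise. Without BMS 3 the log2 difference was 3.94 (adjusted p = 0.0345), and with a pseudocount of 32 on the linear signal it was 4.04.

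The FOS call needed most of the SES arrays. It ended without SES 1 (4.52, adjusted p = 0.0661), without SES 2 (4.14, adjusted p = 0.0585), without SES 3 (4.71, adjusted p = 0.0968) and without the pig of SES 1 and 2 (3.81, adjusted p = 0.282). It also ended when the variance was not tied to the signal level (adjusted p = 0.0959), while the difference kept its sign in each of 29 alternatives.

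EGR1, a zinc finger transcription factor induced by growth factors and shear, had signals of 14.01, 14.44, 14.01 and 13.15 on SES 1 to 4. They were 12.88, 11.20, 13.01 and 12.73 on ZES 1 to 4, and 11.86, 12.60, 11.81 and 13.28 on BMS 1 to 4. Only BMS 4 reached into the range of the SES arrays, and it lay above SES 4 by 0.13, while all ZES arrays lay below all SES arrays. The difference between SES and BMS was 1.52 ± 0.41 (adjusted p = 0.0926). The probe set of EGR1 with the next highest signal gave 1.61 ± 0.45 (adjusted p = 0.102), close to the first. The third was above background on 2 SES, 2 ZES and 2 BMS arrays and differed by 0.37 with an interval of -2.23 to 2.96, so that it carries little information on EGR1.

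NR4A3, an orphan nuclear receptor of the NUR77 family, was the most spread of the 8 within the ZES and BMS groups. Its signals were 11.35, 12.21, 12.04 and 9.68 on SES 1 to 4. They were 10.93, 6.32, 10.86 and 8.22 on ZES 1 to 4, and 6.73, 8.14, 7.89 and 10.63 on BMS 1 to 4. The groups overlapped, since BMS 4 lay 0.95 above SES 4, and ZES 1 and ZES 3 stood about where BMS 4 did. With SDs of 1.16 for SES, 2.23 for ZES and 1.64 for BMS (n = 4 arrays each), the SES minus BMS difference of 2.97 ± 0.91 did not pass (adjusted p = 0.134). The second probe set of NR4A3 was removed by the filter, with a mean of 3.87 over all arrays against a lower limit of 4.30. It was above background on 1 SES, 1 ZES and 0 BMS arrays.

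DUSP1, a phosphatase that switches off MAP kinases, had signals of 13.47, 14.55, 14.09 and 12.37 on SES 1 to 4. They were 13.07, 10.62, 12.31 and 12.31 on ZES 1 to 4, and 11.78, 10.76, 11.74 and 12.99 on BMS 1 to 4. SES 1 to 3 lay above all ZES and BMS arrays, and SES 4 lay among them. The difference between SES and BMS was 1.81 ± 0.53 (adjusted p = 0.118).

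IER3, a stress-induced protein that modulates ERK signalling and cell survival, had signals of 10.86, 12.12, 11.61 and 9.76 on SES 1 to 4. They were 9.83, 7.91, 9.63 and 9.01 on ZES 1 to 4, and 7.33, 8.24, 5.75 and 7.92 on BMS 1 to 4. Every SES array lay above every BMS array, by at least 1.52, and ZES 1 alone of the ZES arrays exceeded SES 4. The means were 11.08 ± 1.03 with SES and 7.31 ± 1.11 with BMS (SD, n = 4 arrays each), a 13.7-fold difference (adjusted p = 0.0104), and every array was above its background. The call ended without SES 3 (3.60, adjusted p = 0.0869), without the pig of SES 1 and 2 (3.37, adjusted p = 0.210) and when the variance was not tied to the signal level (adjusted p = 0.0695).

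IER2, a nuclear protein of the immediate early class, had signals of 10.76, 11.61, 11.50 and 10.55 on SES 1 to 4. They were 9.83, 8.96, 10.55 and 10.66 on ZES 1 to 4, and 9.36, 9.51, 9.71 and 10.14 on BMS 1 to 4. The lowest SES array stood 0.41 above the highest BMS array, and ZES 3 and ZES 4 reached the level of SES 4. The BMS arrays were close together, with an SD of 0.34, and the difference between SES and BMS was 1.42 ± 0.39 (adjusted p = 0.0952).

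DNAJB1, a heat shock protein of the HSP40 class that delivers unfolded proteins to HSP70, had signals of 10.85, 11.96, 10.97 and 10.62 on SES 1 to 4. They were 10.48, 9.11, 10.00 and 10.01 on ZES 1 to 4, and 8.29, 8.95, 9.59 and 10.18 on BMS 1 to 4. All SES arrays lay above all others, by 0.44 over BMS and by 0.14 over ZES. The difference between SES and BMS was 1.85 ± 0.42 and just missed the threshold (adjusted p = 0.0569).

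BTG2, which slows the cell cycle and binds the mRNA deadenylase complex, had signals of 7.83, 8.09, 7.78 and 5.88 on SES 1 to 4. They were 5.21, 6.58, 5.77 and 6.18 on ZES 1 to 4, and 3.39, 1.24, 2.51 and 3.94 on BMS 1 to 4. All 8 arrays from drug-eluting stents were above background and no BMS array was, so that only a bound on the fold can be given. On the group means BTG2 was at least 3.69-fold higher with SES than with BMS, where the means were 7.39 ± 1.02 with SES and 2.77 ± 1.18 with BMS (SD, n = 4 arrays each; adjusted p = 0.0185). SES 4, at 5.88, lay below the background of BMS 1, 5.96. The fitted log2 difference depends on signals below background, at 4.62 ± 0.80 as deposited and 2.36 with a pseudocount of 32. The call ended without SES 1 (adjusted p = 0.0763), SES 2 (adjusted p = 0.0732), SES 3 (adjusted p = 0.136) or the pig of SES 1 and 2 (adjusted p = 0.350), and on means per pig (adjusted p = 0.0548).

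**Figure D2:**
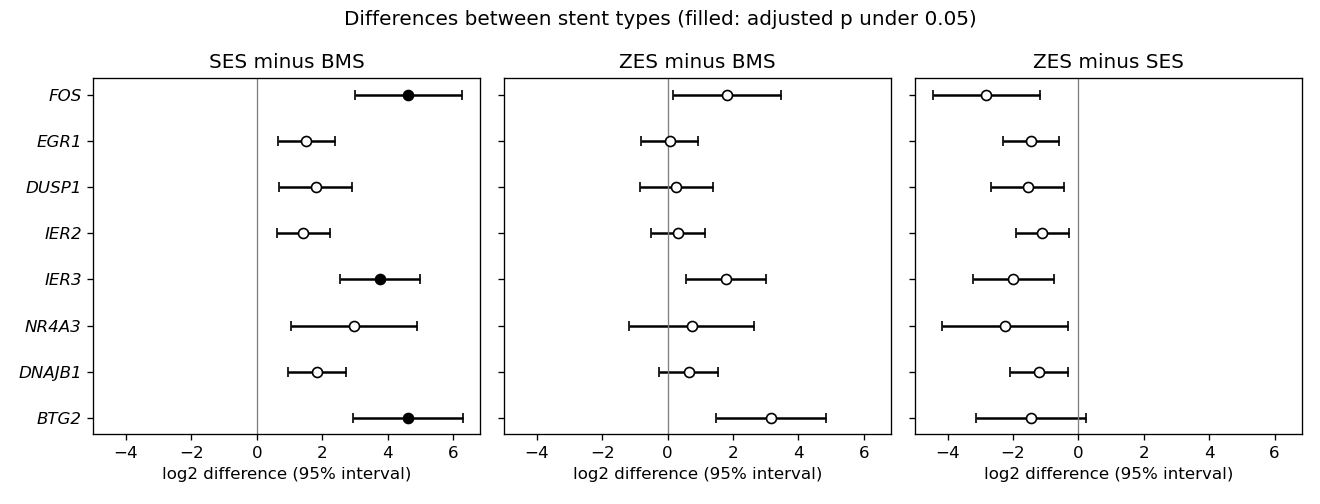
Log2 differences (horizontal axes) with 95% intervals for SES minus BMS, ZES minus BMS and ZES minus SES, 1 row per gene. Filled points passed at an adjusted p under 0.05, which held for FOS, IER3 and BTG2 in SES minus BMS. All 8 points lie above 0 in SES minus BMS and below 0 in ZES minus SES.

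For SES against BMS, 8 of the 8 genes had an unadjusted p under 0.05, where 14.3% of all probe sets did in either direction. In 5 of the 8 every SES array exceeded every BMS array, where 4.23% of all probe sets did. The 8 genes were chosen with earlier results of these data known. The shares of all probe sets, here and in the other comparisons, therefore give a scale and do not test the 8 as a group. Without SES 4, 6 genes passed, with DUSP1 at 2.22 (adjusted p = 0.0325), EGR1 at 1.77 (adjusted p = 0.0362) and DNAJB1 at 2.02 (adjusted p = 0.0288) beside FOS, IER3 and BTG2. The SES arrays then held no LAD segment, while the BMS arrays still did. Without the pig of BMS 3 and 4, 6 genes passed (DUSP1, NR4A3 and DNAJB1 added), as they did without the pig of ZES 1 and 2 (EGR1, IER2 and DNAJB1 added), and without BMS 4, 5 passed. The calls over all probe sets moved too, to 415 without SES 4, 405 without the pig of BMS 3 and 4, 360 without the pig of ZES 1 and 2 and 175 without BMS 4, against 114 with all arrays. Without SES 3, 0 of the 8 genes and 0 of all probe sets passed. With a covariate for the spike-in level the differences were 3.30 for FOS, 2.55 for IER3 and 4.96 for BTG2 (adjusted p = 0.775, 0.775 and 0.676), and with the GAPDH difference they were 5.90, 3.55 and 5.51 (adjusted p = 0.683, 0.741 and 0.715). Neither covariate overlapped between SES and BMS arrays, so that its part and that of the stent type cannot be told apart.

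For ZES against BMS, no gene of the 8 passed in limma, and 3 of the 8 had an unadjusted p under 0.05, where 8.99% of all probe sets did. These were BTG2, IER3 and FOS. With each BMS signal raised to its background, the mean of BTG2 was 1.34-fold higher with ZES, a bound whose sampling error was not estimated. Its fitted difference was 3.16 as deposited and 1.23 with a pseudocount of 32 (adjusted p = 0.360 and 0.361). BTG2 was the only gene of the 8 in which every ZES array lay above every BMS array, which held for 1.58% of all probe sets. Its BMS signals were below background, and ZES 1, at 5.21, lay below the lowest background of a BMS array, 5.27. IER3 differed by 1.79 with a 95% interval of 0.56 to 3.01 (adjusted p = 0.410), and FOS by 1.82 with an interval of 0.18 to 3.47 (adjusted p = 0.508). With a covariate for the spike-in level the difference was 0.77 for IER3 and 0.72 for FOS, and without BMS 3 that of FOS was 1.13. EGR1 differed by 0.07 with an interval of -0.80 to 0.94, DUSP1 by 0.26 with an interval of -0.86 to 1.38 and IER2 by 0.32 with an interval of -0.50 to 1.14. For NR4A3 the difference was 0.73 with an interval of -1.19 to 2.66, and for DNAJB1 it was 0.65 with an interval of -0.25 to 1.54. Differences of up to about 1 for EGR1, and of well over 2 for NR4A3, therefore lie within the intervals.

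For ZES against SES, the sign was negative for all 8 genes, and 7 of the 8 had an unadjusted p under 0.05, where 10% of all probe sets did, while 0 passed in limma after adjustment. FOS was lower with ZES by 2.81 on the log2 scale (interval -4.46 to -1.17, adjusted p = 0.193), NR4A3 by 2.24 (interval -4.17 to -0.32, adjusted p = 0.409) and IER3 by 1.99 (interval -3.21 to -0.76, adjusted p = 0.217). EGR1 differed by -1.45 (adjusted p = 0.202), DUSP1 by -1.55 (adjusted p = 0.302), DNAJB1 by -1.20 (adjusted p = 0.318) and IER2 by -1.10 (adjusted p = 0.317). BTG2 differed by -1.46 with an interval of -3.14 to 0.22 (adjusted p = 0.564). In FOS, EGR1 and DNAJB1 every ZES array lay below every SES array, which held for 3.06% of all probe sets. The GAPDH control, at 3.44 to 3.91 on ZES arrays and 2.33 to 3.03 on SES arrays, did not overlap either, so that its part and that of the stent type cannot be told apart. The second probe set of EGR1 did overlap between ZES and SES, with a difference of -1.08 (adjusted p = 0.430). The ZES and SES differences from BMS share the BMS arrays. Beside each other they were 1.82 with ZES and 4.64 with SES for FOS and 0.07 with ZES and 1.52 with SES for EGR1. By bounds on the group means, BTG2 over BMS was at least 1.34-fold with ZES, where the difference did not pass, and at least 3.69-fold with SES.

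An F test over the 3 stent types, which 0.345% of all probe sets passed, called IER3 (adjusted p = 0.0300), FOS (adjusted p = 0.0385) and BTG2 (adjusted p = 0.0398). It called 2 of the 8 with arrays taken as independent, and 2 on means per pig. Without BMS 1, BMS 2 or BMS 3, 1 of the 8 passed this test, and without SES 1, SES 2 or SES 3 none did.

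**Figure D3:**
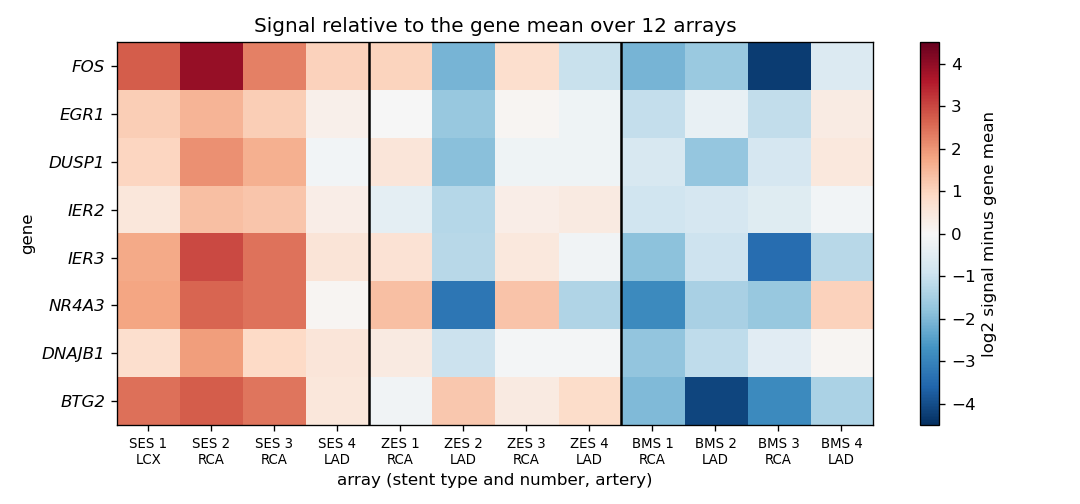
Log2 signal minus the gene's mean over 12 arrays (colour, red above and blue below the mean) for each gene (rows) on each array (columns, with stent type, number and artery). SES 2 is the reddest column for all 8 genes, ZES 2 is blue for 7 genes and red for BTG2, and BMS 4 is the highest BMS column for 7 genes.

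The genes shared a pattern over single arrays. SES 2 held the highest signal of all 12 arrays for 8 of the 8 genes. SES 4, the only LAD array with SES, held the lowest SES signal for 8 of the 8. SES 2 also had the lowest background of the 12 arrays, 4.15, the largest share of probe sets above it, 74.5%, and the lowest GAPDH control, 2.33. How many of all probe sets follow these array patterns was not counted. ZES 2 held the lowest ZES signal for 7 of the 8 genes and the lowest of all arrays for 4 of them, EGR1, DUSP1, IER2 and NR4A3. BMS 4 held the highest BMS signal for 7 of the 8, with IER3 as the exception, which was highest on BMS 2. BTG2 did not follow the others within the ZES group, since ZES 2 was its highest ZES array and ZES 1 its lowest.

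The spread over the 12 arrays was 8.18 for FOS, 6.85 for BTG2, 6.37 for IER3 and 5.90 for NR4A3, but 3.93 for DUSP1, 3.67 for DNAJB1, 3.25 for EGR1 and 2.65 for IER2. Averaged over the 8 genes after each was centred on its mean, the arrays stood at 1.495, 2.38, 1.80 and 0.40 for SES 1 to 4. The same mean was 0.42, -1.41, 0.38 and -0.22 for ZES 1 to 4 and -1.65, -1.51, -1.89 and -0.18 for BMS 1 to 4. SES 4 was thus level with ZES 1 and ZES 3, and ZES 2 was level with BMS 1 to 3.

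**Figure D4:**
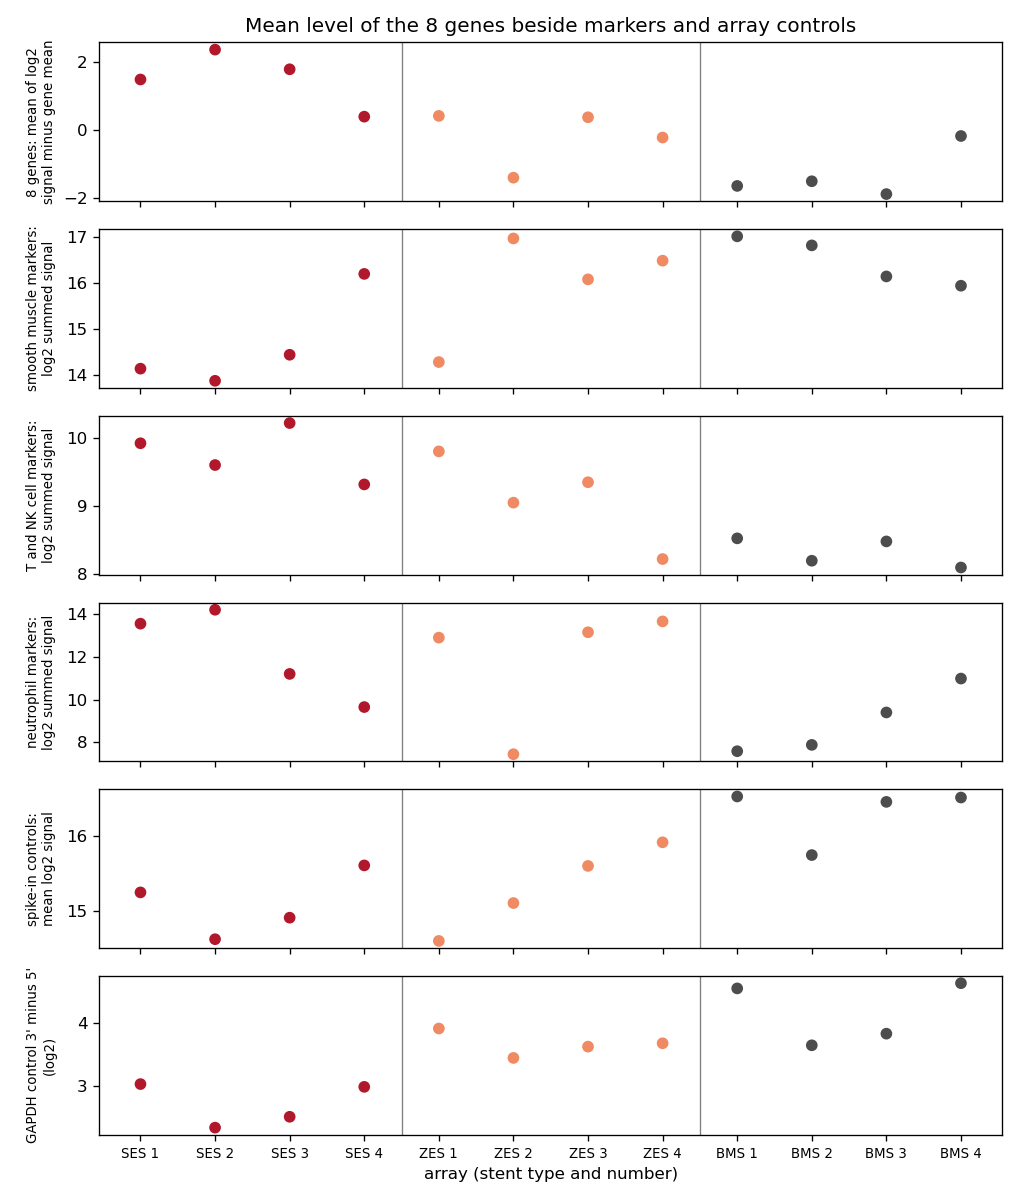
Per array (horizontal axis), from top to bottom, the mean of the 8 genes after centring, the log2 summed signal of smooth muscle, T and NK cell, and neutrophil markers, the mean log2 spike-in signal, and the GAPDH control, 3′ minus 5′. SES arrays are red, ZES arrays orange and BMS arrays grey. SES 4 and ZES 2, lowest of their groups in the top panel, are the highest of their groups for smooth muscle markers.

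Markers of cell types were set beside these arrays. The 6 measured smooth muscle markers summed to 14.15, 13.88, 14.45 and 16.20 (log2 of the summed signal) on SES 1 to 4. On ZES 1 to 4 they summed to 14.29, 16.97, 16.08 and 16.49, and on the BMS arrays to 15.94 to 17.01. SES 4 and ZES 2, with the lowest means of the 8 genes in their groups, had the highest smooth muscle sums of their groups, and SES 2 and ZES 1, with the highest means, had the lowest sums. BMS 4, with the highest mean of the BMS arrays, had the lowest BMS sum (15.94). BMS 3, with the lowest mean of all arrays, had the next lowest (16.14), so that the BMS group did not follow throughout. The part of these markers in the result was not tested. In bulk tissue, fewer cells of a type and less RNA per cell cannot be told apart.

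The 7 measured T and NK cell markers of 9 listed summed to 9.32 to 10.22 on SES arrays, 8.22 to 9.80 on ZES arrays and 8.10 to 8.53 on BMS arrays, so that SES and BMS did not overlap. The 5 measured neutrophil markers of 7 summed to 9.66 to 14.22 on SES arrays, 7.44 to 13.68 on ZES arrays and 7.58 to 10.99 on BMS arrays, with ZES 2 the lowest of its group by far. The 4 measured monocyte and macrophage markers of 7 ranged over 12.27 to 13.32 with SES, 12.34 to 13.07 with ZES and 12.31 to 14.34 with BMS. The 6 endothelial markers of 6 ranged over 9.86 to 10.50 with SES, 10.30 to 11.45 with ZES and 9.64 to 10.01 with BMS. For the 7 cardiomyocyte markers of 9 the range was 6.92 to 11.84 with SES, 7.44 to 10.88 with ZES and 7.27 to 10.57 with BMS. SES 4 was the highest of all 12 arrays, against 6.92 to 7.79 on the other SES arrays. The 2 measured B and plasma cell markers of 5 ranged over 10.40 to 11.24 with SES, 9.82 to 13.78 with ZES and 8.04 to 11.04 with BMS, and the 3 red cell markers of 6 over 8.55 to 9.26 with SES, 7.69 to 8.999 with ZES and 7.25 to 8.99 with BMS. No measured marker of these lists was below background on all 12 arrays. What these cells contribute to the 8 genes was not tested.

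The 2 arrays of high 28S signal, BMS 1 and ZES 2, were also left out together. Without both, 3 of the 8 genes still passed in limma for SES against BMS, closer to the threshold, and the F test called 0. The adjusted p was 0.0402 for FOS, 0.0300 for IER3 and 0.0477 for BTG2. What the 28S signal contributes was not tested.

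Genes of the same regulatory class were described from lists of related genes. Of 22 further immediate early transcription factors 11 were tested, and 0 passed in limma in any stent comparison, with 4 at an unadjusted p under 0.05 for SES against BMS, as were 911 of all 5793 genes tested. For ZES minus SES 5 were, beside 659 of all genes tested, and for ZES minus BMS 0 were, beside 449. Their median difference was 0.95 for SES minus BMS, 0.31 for ZES minus BMS and -1.20 for ZES minus SES. Over all genes tested the medians were -0.01, 0.01 and 0.01. KLF4, a factor that represses the contractile state of smooth muscle, had a difference of 1.81 ± 0.45 for SES minus BMS (adjusted p = 0.0761) and of -2.01 ± 0.45 for ZES minus SES (adjusted p = 0.0953). The repressor NFIL3 differed by 2.51 ± 0.66 (adjusted p = 0.0865), the growth factor-induced MYC by 1.40 ± 0.85 (adjusted p = 0.470) and the clock-related repressor BHLHE40 by 3.17 ± 1.10 (adjusted p = 0.183) for SES minus BMS. MYC differed by -2.83 ± 0.85 for ZES minus SES (adjusted p = 0.224). BHLHE40 was above background on 4 SES, 2 ZES and 1 BMS arrays and MYC on 4 SES, 2 ZES and 3 BMS arrays. JUN, the partner of FOS, named after its value was seen, had a difference of -0.27 ± 0.48 for SES minus BMS (adjusted p = 0.836), with means of 8.72 with SES and 8.99 with BMS.

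Of 29 other immediate early genes and feedback inhibitors 16 were tested and 0 passed, with 2 at an unadjusted p under 0.05 for SES minus BMS. That is near the share over all genes tested, 911 of 5793. The sign was positive for 13 of the 16, and for 2870 of all 5793, with a median of 0.78 for SES minus BMS, -0.02 for ZES minus BMS and -0.70 for ZES minus SES. NFKBIA, which holds NF-kB in the cytoplasm, differed by 1.35 ± 0.31 (adjusted p = 0.0569) and the kinase SGK1 by 1.19 ± 0.42 (adjusted p = 0.193) for SES minus BMS. PTGS2, the inducible cyclooxygenase, differed by 1.28 ± 0.76 for SES minus BMS (adjusted p = 0.461) and by -2.69 for ZES minus SES (adjusted p = 0.200). The GTPase RHOB differed by -0.51 ± 0.29 for SES minus BMS (adjusted p = 0.436) and by -0.63 ± 0.29 for ZES minus BMS (adjusted p = 0.536). SGK1 differed by -1.34 ± 0.42 for ZES minus SES (adjusted p = 0.258).

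Of 23 other heat shock proteins and co-chaperones 19 were tested and 0 passed. For SES minus BMS 4 had an unadjusted p under 0.05 in limma, as did 911 of all 5793 genes tested. The median was 0.29 for SES minus BMS, 0.02 for ZES minus BMS and -0.29 for ZES minus SES. The mitochondrial chaperone HSPA9 differed by 0.75 ± 0.25 (adjusted p = 0.171) and HSPA4, of the HSP110 class, by 1.11 ± 0.40 (adjusted p = 0.198) for SES minus BMS. DNAJA1, another HSP40, had the opposite sign to DNAJB1 for SES minus BMS, at -1.54 ± 0.51 (adjusted p = 0.167). DNAJB4 was at -0.17 ± 0.45 for SES minus BMS (adjusted p = 0.898) and at -1.39 ± 0.45 for ZES minus BMS (adjusted p = 0.410).

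Of 16 genes of the BTG and TOB family, p53 targets and growth arrest, 9 were tested and 0 passed. For SES minus BMS 3 had an unadjusted p under 0.05 in limma, as did 911 of all 5793 genes tested. Their median was 0.16 for SES minus BMS, -0.28 for ZES minus BMS and -0.21 for ZES minus SES. BTG1, the closest relative of BTG2, differed by 0.80 ± 0.31 (adjusted p = 0.234) and CNOT8, a deadenylase that BTG proteins bind, by 0.74 ± 0.44 (adjusted p = 0.453) for SES minus BMS. The p53 targets CCNG1 and SESN1 differed by -0.82 ± 0.37 (adjusted p = 0.313) and -0.73 ± 0.33 (adjusted p = 0.317) for SES minus BMS. CNOT8 differed by -1.14 ± 0.44 for ZES minus SES (adjusted p = 0.375).

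Upstream genes of the MAP kinase and CREB pathway had 8 of 19 members tested, and 0 passed. For SES minus BMS 0 had an unadjusted p under 0.05 in limma, where 911 of all 5793 genes tested did. Their median was -0.21 for SES minus BMS, -0.44 for ZES minus BMS and -0.09 for ZES minus SES. MAPK8, the kinase JNK1, differed by -1.68 ± 0.91 (adjusted p = 0.419), the p38 kinase MAPK14 by -0.36 ± 0.32 (adjusted p = 0.653) and its activator MAP2K6 by -1.57 ± 0.95 (adjusted p = 0.471) for SES minus BMS. With ZES minus BMS the difference was -2.41 ± 0.91 for MAPK8 (adjusted p = 0.458) and -0.63 ± 0.32 for MAPK14 (adjusted p = 0.591). MAPK8 was above background on 7 of the 12 arrays and MAP2K6 on 8. The transcription factor CREB1 was above background on 3 SES, 1 ZES and 0 BMS arrays, so that no difference from BMS is given for it. mRNA levels do not measure the phosphorylation by which these kinases act.

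The named genes whose signals over the 12 arrays were most like FOS were found by the root mean square difference of centred log2 signals. IER3 was closest of all 5792 other genes, at 0.68, and NR4A3 ranked 11, at 1.13. Outside the 8 genes, the closest to FOS were the metalloreductase STEAP4 (0.75), the chemokine CCL24 (0.97), the hexokinase HK3 (1.02) and C17H8orf4 (1.04). Closest to BTG2 were UBD, a ubiquitin-like protein (1.02), the T cell receptor subunit CD3E (1.15), CFP, the complement factor properdin (1.22) and LOC100621559 (1.259). Among the 8 genes IER3 came nearest to BTG2, at rank 4 (1.257), DNAJB1 ranked 69, FOS ranked 42 and NR4A3 ranked 666. Closest to DNAJB1 were PGM2 (0.34), FN1, fibronectin (0.39), ISOC1 (0.39) and CDH11, a cadherin of mesenchymal cells (0.42), with IER2 at rank 12, EGR1 at rank 15 and DUSP1 at rank 45. The other members were far from DNAJB1, with IER3 at rank 2358, NR4A3 at 2889, FOS at 4445 and BTG2 at 4488. The measure favours genes of like amplitude, and 12 arrays in 3 groups share their group differences, so that it describes likeness only.

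**Figure D5:**
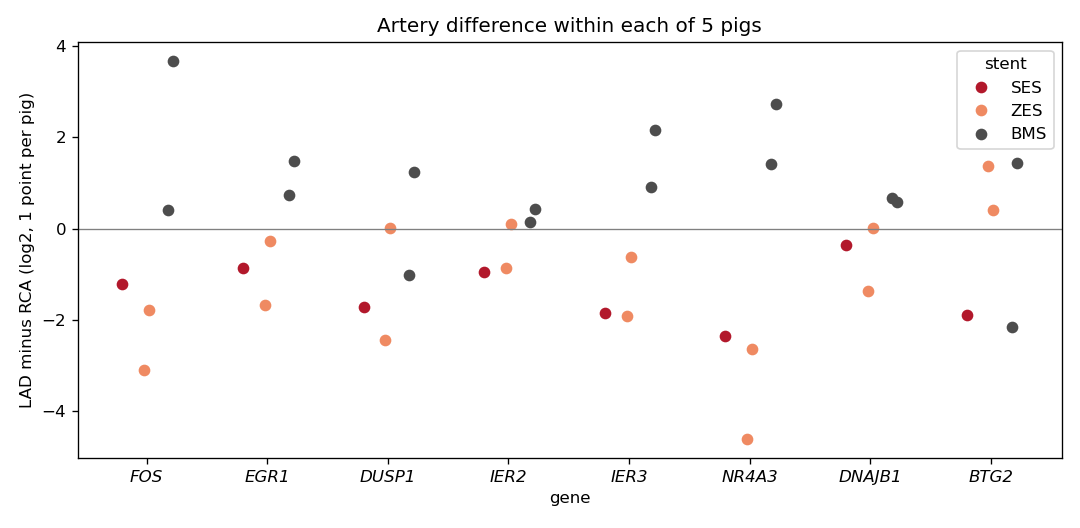
LAD minus RCA (vertical axis, log2) within each of 5 pigs for each gene (horizontal axis), 1 point per pig, with SES in red, ZES in orange and BMS in grey. For FOS, EGR1, IER3 and NR4A3 both BMS points lie above 0 and the SES and ZES points below 0.

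Between arteries of the same pig, no gene of the 8 passed for LAD against RCA over 5 pigs in limma, where 0% of all probe sets passed and 6.86% had an unadjusted p under 0.05, as did 0 of the 8. The difference was -0.41 ± 0.78 for FOS, -1.09 ± 0.84 for NR4A3 and -0.79 ± 0.44 for DUSP1 (adjusted p = 0.933, 0.797 and 0.745). These means cover pigs of opposite sign. Markers of cell types also differed between the arteries. LAD minus RCA was above 0 for 6 of the 6 smooth muscle markers tested, with a median of 1.267. The same held for 4 of the 4 cardiomyocyte markers tested, with a median of 2.486. In each list 3 had an unadjusted p under 0.05 in limma, and 0 passed after adjustment. What these markers contribute to the artery difference of the 8 genes was not tested. For 5 of the 10 probe sets tested, LAD minus RCA was below 0 in both ZES pigs and above 0 in both BMS pigs, which held for 7.39% of all probe sets. NR4A3 had LAD minus RCA of -2.36 in the SES pig, -4.61 and -2.64 in the ZES pigs, and 1.41 and 2.74 in the BMS pigs. FOS had -1.21 in the SES pig, -3.10 and -1.78 in the ZES pigs, and 0.40 and 3.66 in the BMS pigs. In a test of ZES minus BMS for this artery difference, chosen after these values were seen, 0 of the 8 genes passed in limma (0% of all probe sets), while FOS, EGR1, IER3 and NR4A3 had an unadjusted p under 0.05, as did 8.19% of all probe sets.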

How the data were processed

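The submitters' processing notes name MAS5 and Affymetrix Expression Console 5.0 as the tools, and the deposited values are the authors' log2 signals. The log base was read from the values, since the linear signals had a trimmed mean of 500.15 to 500.17 on every array. The sources used here name no scaling target. From 24123 probe sets, 124 controls and the 30% with the lowest mean were left out, which left 16799. Names came from the platform annotation, and all 8 genes matched the same symbol in RefSeq by gene ID. Stent types were compared with limma 3.58.1 (R 4.3.3, statmod 1.5.0) on all 12 arrays, with the pig as random block (consensus correlation -0.0322) and a variance trend; LAD and RCA with the pig as fixed block. Two-sided p-values were adjusted over all probe sets by Benjamini-Hochberg, with 0.05 as threshold; intervals cover 95%. A gene not above background on any array of a group has its fold between group means as a bound, whose sampling error was not estimated. For it, each array of the dim group was set to its background or its own signal, whichever was higher, before averaging. Each group had only 2 pigs, so that p-values largely reflect segments, and the number of arrays limits the precision. With the negative consensus correlation, standard errors between stent types were slightly smaller for the 8 genes than with arrays taken as independent. For SES minus BMS they were 0.7795 with the block and 0.7992 without it for FOS, and 0.5814 and 0.5957 for IER3. The F test passed 58 probe sets with the block and 29 without it. The random block thus made the stent tests slightly more lenient, not stricter. The fit was run on simulated data with independent arrays and no pig effect, which cannot show how it performs with 2 pigs per group. The alternatives changed the block, variance trend, filter, pseudocount, normalization, covariates and arrays. Array controls were compared by exact permutation of single arrays, without regard to the pig (scipy 1.17.1). The genes named are the 8, and up to 4 per related list with the smallest p. The genes and lists were chosen with earlier results of these data known.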

Additional observations from a re-analysis of the deposited data

Results flagged for a closer look

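Of 33 groups of 4 arrays, 2 held an array set apart from the other 3 by more than the 95% limit of Dixon's test, which chance exceeds in about 1 of 20 groups. EGR1 read 11.20 on ZES 2, against 12.73 to 13.01 on the other ZES arrays. BTG2 read 5.88 on SES 4, against 7.78 to 8.09 on the other SES arrays.

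The artery difference ran opposite ways with ZES and BMS for 4 genes. In both ZES pigs FOS, EGR1, IER3 and NR4A3 were lower in the LAD than in the RCA, and in both BMS pigs they were higher, a pattern found in 7.39% of all probe sets. A test of the difference between stent types, added after the values per pig were seen, gave -5.70 for NR4A3 (ZES minus BMS of LAD minus RCA, log2; unadjusted p = 0.000119 and adjusted p = 0.414 in limma), -4.47 for FOS (adjusted p = 0.522) and -2.81 for IER3 (adjusted p = 0.531). For the 2 brighter probe sets of EGR1 it gave -2.08 and -2.53 (adjusted p = 0.522 for both). No probe set of the array passed (0%), and 8.19% had an unadjusted p under 0.05. The test had 2 pigs for ZES and 2 for BMS, and the SES group had 1 pig with both arteries. With each of ZES and BMS, 1 pig held an array with a high ribosomal RNA control. These were ZES 2, from the LAD (14.095), and BMS 1, from the RCA (14.574). Smooth muscle and cardiomyocyte markers were also higher in the LAD than in the RCA, without passing after adjustment. The part of either in the artery difference of these genes was not tested.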

How the results depend on the processing

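The 8 differences of SES minus BMS and the 8 of ZES minus SES kept their sign in all 29 alternatives each. For SES minus BMS the number of the 8 genes past the threshold was 3, and 1 without a variance trend, 0 with either control covariate (spike-in level or GAPDH difference) in limma, and 0 to 6 when an array or a pig was left out. For the F test it was 3, and 2 with arrays taken as independent, 2 on pig means, 0 without a variance trend, 0 with either covariate, 0 without BMS 1 and ZES 2, and 0 to 4 with an array or pig left out. It stayed at 0 for ZES minus BMS, ZES minus SES and LAD minus RCA under each alternative run.

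Over all probe sets, SES minus BMS gave 114, against 64 on pig means, 183 without the filter, 19 without a variance trend, 199 with a pseudocount, 178 from the arrays of both groups alone, 26 without BMS 1 and ZES 2, and 0 with either covariate, where 2408 had an unadjusted p under 0.05 without one. ZES minus SES gave 12, against 6 with arrays taken as independent, 4 on pig means, 0 without a variance trend, 48 without the filter, 47 with a pseudocount, 6 with quantile normalization, 6 with median centring, 5 from both groups alone, 5 with the spike-in level, 0 with the GAPDH difference and 4 without BMS 1 and ZES 2. The F test gave 58, against 29 with arrays taken as independent, 5 without a variance trend, 108 without the filter, 109 with a pseudocount, 2 with the spike-in level, 0 with the GAPDH difference and 10 without BMS 1 and ZES 2. ZES minus BMS gave 0, against 3 without the filter. Leaving out an array or a pig gave 0 to 415 for SES minus BMS, 0 to 71 for ZES minus BMS, 0 to 158 for ZES minus SES and 0 to 314 for the F test. The cause of these changes was not tested.

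Signs turned only in differences that had not passed. With the spike-in level as covariate, ZES minus BMS was -0.13 for EGR1 and -0.15 for NR4A3. Leaving out an array or pig, ZES minus BMS ranged from -0.35 to 0.49 for EGR1, -0.29 to 0.81 for DUSP1, -0.18 to 1.67 for NR4A3 and -0.29 to 0.93 for IER2. LAD minus RCA ranged from -1.42 to 0.27 for FOS, -0.52 to 0.27 for EGR1, -0.87 to 0.15 for IER3, -0.28 to 0.23 for DNAJB1 and -0.57 to 0.33 for BTG2. No paired analysis was possible because each pig carried 1 stent type, which leaves no pig to pair across stent types. LAD and RCA were compared within pigs, and the artery was not used as a block between stent types. Signals at background, as for BTG2 with BMS, limit what the fold can show.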
